A study of Mus musculus with 18 samples.

Results

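Natural killer group 2 (NKG2) and related killer cell lectin-like receptor (Klr) genes of mouse CD8 T cells, with a pair of adaptor genes, were followed across 4 groups of libraries. The 9 genes were taken by symbol from a table of 46983 genes. They were Klrc1, Klrc2, Klrd1, Klrk1, Klre1, Klrb1c and Klrg1, which encode receptors, and Hcst and Fcer1g, which encode signalling adaptors. All 9 had a row in the table, and 8 of them were among the 9437 genes tested, for which 4 or more libraries had to reach a value of 10. Klrg1 did not pass and was not tested.

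The study measured RNA in CD8 T cells of Dock2-deficient and wild-type mice. There were 5 libraries of Dock2-deficient memory-phenotype cells (high surface CD44), 4 of wild-type memory-phenotype cells, 5 of Dock2-deficient naive cells (low CD44) and 4 of wild-type naive cells. The labels name no treatment and no age. The genotype field named the Dock2-deficient mice Dock2-Hsd/Hsd (Dock2-/-), homozygous for the Hsd allele. The strain field was C57BL/6J throughout, but the Dock2-deficient descriptions named C57L6NHsd, so that substrain and genotype cannot be told apart. The labels tie the allele to no particular cell type. Nothing in them says that the libraries were separate animals, so p-values measure the spread between these libraries only, which may be technical.

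Klrc1 encodes NKG2A, which pairs with CD94, the product of Klrd1, to form an inhibitory receptor for the non-classical MHC molecule Qa-1b. The Klrc2 product NKG2C also pairs with CD94 but activates, through the adaptor DAP12. Klrk1 encodes NKG2D, an activating receptor that does not use CD94. It recognises stress-induced ligands and signals through DAP10, the product of Hcst. These receptors were first described on natural killer (NK) cells and are also found on memory-phenotype CD8 T cells, which are known for their dependence on interleukin-15 and on the transcription factors T-bet and Eomes.

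The positions below are from GENCODE M21 on mm10. All 7 receptor genes lie on chromosome 6, and 5 of them sit in a stretch of 101.1 kb in the NK gene complex, chr6:129577905-129678973. In this order along the chromosome they are Klre1 (chr6:129577905-129585827, plus strand), Klrd1 (chr6:129591782-129598775, plus), Klrk1 (chr6:129610323-129623864, minus), Klrc2 (chr6:129647496-129660689, minus) and Klrc1 (chr6:129666015-129678973, minus). Klrb1c (chr6:128778485-128789215, minus) and Klrg1 (chr6:122270596-122282882, minus) lie outside it. Hcst is on chromosome 7 (chr7:30417712-30419854, minus) and Fcer1g on chromosome 1 (chr1:171229572-171234365, minus). All 9 are protein-coding genes.

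RefSeq promoters (GRCm38.p6, 250 bases before to 50 bases after the start) were at hand for 7 of the 9 genes, those other than Klrd1 and Klrg1. Those of the 4 genes of the stretch are printed because their mean levels were higher in memory than in naive cells of both genotypes, and that of the adaptor gene Hcst because it was present in every library. Klre1 and Klrc2 have a pair of listed starts each, of which the one printed is that with a match or the upstream one. Each is written 5′ to 3′ on the strand of its gene, and capitals mark matches to the RUNX motif TGTGGT or its reverse complement ACCACA.
Klre1 (chr6:129577963-129578262, plus): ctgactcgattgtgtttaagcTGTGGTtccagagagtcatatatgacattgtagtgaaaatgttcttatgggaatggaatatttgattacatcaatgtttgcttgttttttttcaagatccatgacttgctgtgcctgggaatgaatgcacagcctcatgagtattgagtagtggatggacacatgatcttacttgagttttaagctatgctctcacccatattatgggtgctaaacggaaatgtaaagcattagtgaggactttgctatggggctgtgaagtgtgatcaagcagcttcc
Klrk1 (chr6:129623815-129624114, minus): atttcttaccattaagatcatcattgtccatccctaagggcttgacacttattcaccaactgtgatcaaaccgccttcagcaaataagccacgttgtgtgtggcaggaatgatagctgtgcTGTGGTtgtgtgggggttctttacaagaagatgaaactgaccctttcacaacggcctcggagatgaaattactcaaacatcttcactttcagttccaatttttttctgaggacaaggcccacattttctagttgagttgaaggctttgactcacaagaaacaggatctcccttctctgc
Klrc2 (chr6:129660547-129660846, minus): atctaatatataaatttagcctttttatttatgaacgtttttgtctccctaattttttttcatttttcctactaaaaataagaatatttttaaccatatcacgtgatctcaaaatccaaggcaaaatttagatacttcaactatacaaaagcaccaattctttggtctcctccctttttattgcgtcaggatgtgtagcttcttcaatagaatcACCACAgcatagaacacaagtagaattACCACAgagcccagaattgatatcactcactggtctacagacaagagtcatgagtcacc
Klrc1 (chr6:129678924-129679223, minus): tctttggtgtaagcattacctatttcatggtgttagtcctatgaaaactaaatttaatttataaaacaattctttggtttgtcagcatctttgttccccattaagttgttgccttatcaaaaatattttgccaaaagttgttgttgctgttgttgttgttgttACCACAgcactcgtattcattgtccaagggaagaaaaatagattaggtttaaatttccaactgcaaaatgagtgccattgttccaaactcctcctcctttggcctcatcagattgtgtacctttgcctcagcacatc
Hcst (chr7:30419805-30420104, minus): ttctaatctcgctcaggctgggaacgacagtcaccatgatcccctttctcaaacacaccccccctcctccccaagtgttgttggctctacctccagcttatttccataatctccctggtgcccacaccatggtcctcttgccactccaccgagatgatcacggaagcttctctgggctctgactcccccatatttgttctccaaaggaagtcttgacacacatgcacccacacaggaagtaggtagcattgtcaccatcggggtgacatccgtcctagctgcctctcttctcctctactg

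The RUNX motif was found on either strand of a promoter of 6 of the 7 genes, Fcer1g, Klrb1c, Klrc1, Klrc2, Klre1 and Klrk1, and not in that of Hcst. Of all 27025 genes in the table, 18.9% had a promoter that held it. Counted by promoter, it was in 7 of the 9 listed for these genes and in 16.8% of all 32851. The match in Klrk1 began at position -129 from the start, that in Klrc1 at -87 and that in Klre1 at -229. The printed Klrc2 promoter held 2 matches. The T-box motif AGGTGT was in the promoters of 0 of the 7 genes and of 15.7% of all genes, and the STAT motif TTCNNNGAA in those of 0 of 7 and of 9.55%. By promoter these shares of the whole table are 13.7% and 8.3%. These 3 motifs were chosen after the promoters had been seen, and a match or its lack says only whether these letters are in the window.

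Values are RSEM expected counts that the authors had scaled between libraries, called normalized expected counts here. A library held 2215987 to 8257768 expected reads, and 1 read was worth 0.512 to 1.81 normalized units. The ribosomal RNA gene Rn18s-rs5 took 37.0% to 69.4% of the reads. Dock2 itself was at 61.0 to 280 in Dock2-deficient memory libraries, against 400 to 844 in wild-type memory libraries, and at 171 to 373 in Dock2-deficient naive libraries, against 288 to 514 in wild-type naive libraries. Xist, the X-inactivation RNA, was high in every wild-type library and in library 1 of each Dock2-deficient group, and the other 8 Dock2-deficient libraries expressed Y-linked genes, so sex and genotype largely cannot be told apart. Dock2-deficient memory library 5 and wild-type memory library 4 stood apart from the rest, and where the call or direction of a fold change of the 9 genes changes without them, that value is given too. Cd44, the surface marker of the sort, was at 172 to 222 in Dock2-deficient memory, 124 to 220.4 in wild-type memory, 0 to 21.7 in Dock2-deficient naive and 3.39 to 9.78 in wild-type naive libraries. The summed level of 5 CD8 T cell genes (Cd3d, Cd3e, Cd3g, Cd8a, Cd8b1) was at least 5195 in every library.

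Most NKG2 and other Klr transcripts were higher in memory-phenotype than in naive cells. In Dock2-deficient mice 6 of the 8 tested genes rose in memory cells (Klrc1, Klre1, Klrk1, Fcer1g, Klrd1 and Hcst), and in wild-type mice 6 rose as well (Klrc1, Klre1, Klrk1, Fcer1g, Klrc2 and Klrb1c). Of all genes tested, 1.77% rose in Dock2-deficient and 1.88% in wild-type memory cells. None of the 8 fell, beside 1.05% and 0.646% of all genes. Klrc1, Klrc2, Klre1, Klrb1c and Fcer1g reached a value of 10 in memory libraries only, so that they could enter the test only by being high there, and the number of rises among these 5 carries no weight. The genes were also chosen with earlier results of these data known. All calls are from limma with Benjamini-Hochberg adjustment over all genes tested, at an adjusted p under 0.05, and fold changes are on the scale of log2(value + 1), which understates the change of low genes.

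**Figure D1:**
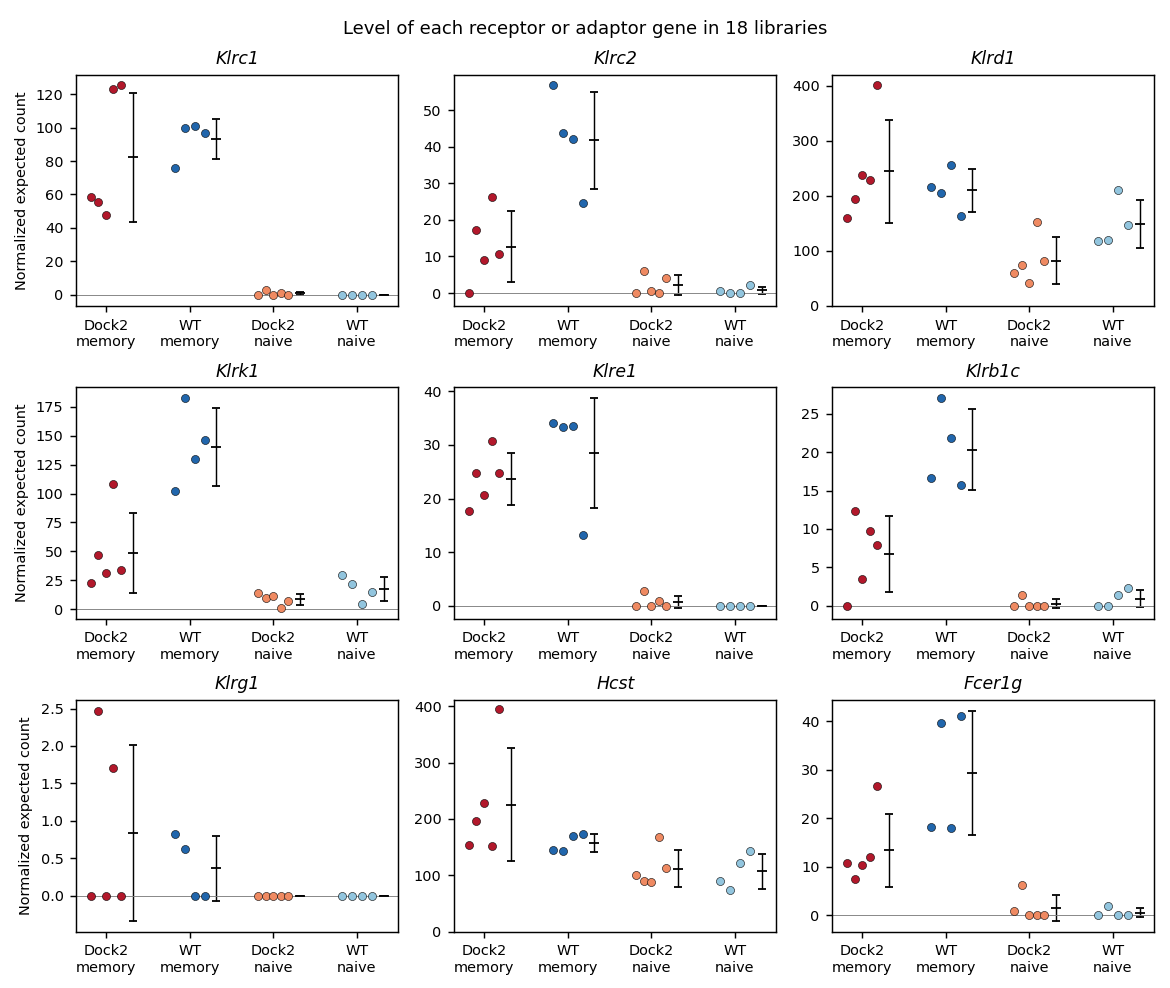
Normalized expected count (vertical axis, linear, 1 scale per panel) of each of the 9 genes in the 18 libraries of 4 groups; points are libraries in order of replicate number and bars give the mean and SD. Klrc1, Klre1 and Fcer1g are near 0 in naive libraries of both genotypes, Klrd1 and Hcst are present in all 18 libraries, and Klrk1, Klrc2 and Klrb1c have lower means in Dock2-deficient memory than in wild-type memory libraries.

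Of the 8 tested genes, Klrc1 (NKG2A) had the largest fold change between memory and naive cells in both genotypes. Its normalized expected counts were 58.6, 55.7, 47.6, 123 and 125 in Dock2-deficient memory libraries and 75.6, 99.5, 101 and 96.9 in wild-type memory libraries. In Dock2-deficient naive cells it was 2.70 in library 2, 0.802 in library 4 and 0 in the other 3, and it was 0 in all 4 wild-type naive libraries. No memory library overlapped a naive one, and the Dock2-deficient memory libraries fell on both sides of the wild-type memory range. The log2 fold change of memory over naive was 5.71 ± 0.42 (SE) in Dock2-deficient mice (limma, adjusted p = 1.87e-08) and 6.55 ± 0.47 in wild-type mice (adjusted p = 1.1e-08). Because wild-type naive libraries held no Klrc1 read, its level was at least 123-fold higher in wild-type memory cells, taking 3 reads over the group as the floor.

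Klre1, whose product forms receptors with the KLRI lectins, showed the same arrangement at a lower level per kb of exon. Its values were 17.8, 24.7, 20.6, 30.6 and 24.8 in Dock2-deficient memory libraries and 34.0, 33.4, 33.5 and 13.1 in wild-type memory libraries. Among naive libraries, Dock2-deficient library 2 had 2.71, Dock2-deficient library 4 had 0.802, and the remaining 7 of both genotypes had 0. Memory and naive libraries did not overlap in either genotype. The log2 fold change of memory over naive was 4.06 ± 0.50 in Dock2-deficient mice (limma, adjusted p = 1.96e-05) and 4.79 ± 0.56 in wild-type mice (adjusted p = 8.32e-06). Against the same floor its level was at least 37.7-fold higher in wild-type memory than in wild-type naive cells. Over the 18 libraries, log2 values of Klrc1 and Klre1 had a Pearson correlation of 0.988, and 0.717 after each group's mean was subtracted, from libraries that share their depth and composition. The partners Klri1 and Klri2 were below the filter: Klri2 ranged from 0 to 17.03 in Dock2-deficient memory, 1.66 to 55.1 in wild-type memory and 0 in all naive libraries.

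Klrd1 (CD94), the partner of NKG2A and NKG2C, was unlike Klrc1 in being present in naive cells. Its values were 159.8, 195, 237, 228 and 402 in Dock2-deficient memory libraries and 216, 205, 257 and 163 in wild-type memory libraries. They were 60.01, 74.7, 42.5, 153 and 81.7 in Dock2-deficient naive libraries and 118, 119, 211 and 148 in wild-type naive libraries. Each Dock2-deficient memory library lay above each Dock2-deficient naive library, whereas wild-type memory and naive libraries overlapped. Klrd1 rose by 1.62 ± 0.29 in Dock2-deficient memory cells (limma, adjusted p = 0.00182), and the log2 difference between wild-type memory and naive cells was 0.51 ± 0.33 (adjusted p = 0.594). The difference between these differences was 1.10 ± 0.44, with an unadjusted p of 0.02 and an adjusted p of 0.819, so the memory effect on Klrd1 was not shown to differ between genotypes.

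Klrk1 (NKG2D) was likewise read in all 18 libraries. Its values were 23.1, 46.9, 30.9, 108 and 33.6 in Dock2-deficient memory libraries and 102, 183, 130.2 and 146 in wild-type memory libraries. They were 13.6, 9.51, 11.8, 0.802 and 6.97 in Dock2-deficient naive libraries and 29.2, 21.7, 4.19 and 14.7 in wild-type naive libraries. Memory libraries lay above naive libraries in both genotypes without overlap. Klrk1 rose by 2.45 ± 0.54 in Dock2-deficient memory cells (limma, adjusted p = 0.0106) and by 3.17 ± 0.60 in wild-type memory cells (adjusted p = 0.00312). The interaction, the memory effect in Dock2-deficient minus that in wild-type mice, was -0.72 ± 0.81 (limma, adjusted p = 0.866).

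Klrc2 (NKG2C) had a lower mean in Dock2-deficient than in wild-type memory cells, a difference that did not pass (limma, adjusted p = 0.259). Its values were 0, 17.2, 9.07, 26.2 and 10.7 in Dock2-deficient memory libraries and 56.9, 43.9, 42.1 and 24.5 in wild-type memory libraries. They were 0, 6.13, 0.512, 0 and 3.98 in Dock2-deficient naive libraries and 0.551, 0, 0 and 2.26 in wild-type naive libraries. Memory and naive libraries overlapped in Dock2-deficient mice, where memory library 1 held no read, and did not overlap in wild-type mice. The log2 fold change was 2.02 ± 0.79 in Dock2-deficient mice (limma, adjusted p = 0.247) and 4.78 ± 0.88 in wild-type mice (adjusted p = 0.00231). Without Dock2-deficient memory library 1 the Dock2-deficient comparison passed, at 2.81 ± 0.65 (limma, adjusted p = 0.0195). The interaction was -2.76 ± 1.18, with an unadjusted p of 0.0298 and an adjusted p of 0.819. Klrc2 passed the filter only through the wild-type memory libraries, so this unadjusted p carries no weight.

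How reads are shared among the Klrc genes is uncertain. Of the stretches of 50 bases in the transcripts of Klrc1, 36.6% also occur in Klrc2, and Klrc1 came out as a whole number of reads in 2 of the 11 libraries where it was above 0, Klrc2 in 4 of 13. Klrd1, Klrk1, Klrg1, Hcst and Fcer1g share no such stretch with another gene. With Klrc1, Klrc2 and Klrc3 summed, the level was 95.4 ± 45.4 in Dock2-deficient memory (SD, n = 5), 138 ± 10.02 in wild-type memory (n = 4), 2.83 ± 3.70 in Dock2-deficient naive (n = 5) and 0.702 ± 1.07 in wild-type naive cells (n = 4). The sum rose by 5.05 in Dock2-deficient (limma, adjusted p = 2.44e-06) and by 6.53 in wild-type memory cells (adjusted p = 2.67e-07).

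Klrb1c, which encodes the NK cell antigen NK1.1, had the fewest reads of the tested genes. Its values were 0, 12.3, 3.44, 9.76 and 7.96 in Dock2-deficient memory libraries and 16.6, 27.1, 21.9 and 15.7 in wild-type memory libraries. Among naive libraries it was above 0 in Dock2-deficient library 2 (1.36) and in wild-type libraries 3 (1.40) and 4 (2.26). It rose by 3.64 ± 0.80 in wild-type memory cells (limma, adjusted p = 0.0111), and the log2 fold change in Dock2-deficient mice was 2.25 ± 0.71 (adjusted p = 0.114). The Dock2-deficient comparison passed without memory library 1 (2.87 ± 0.63, limma, adjusted p = 0.012) and, with all libraries, under library weights (adjusted p = 0.0204) and without a variance trend (adjusted p = 0.0394), and the wild-type call was lost without wild-type memory library 2 (limma, adjusted p = 0.0537). Of its stretches of 50 bases, 17% occur in another gene as well, mostly the gene model Gm44511.

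Klrg1, an inhibitory receptor for cadherins that marks terminally differentiated effector cells, held 6 expected reads in all. It was 2.47 and 1.70 in Dock2-deficient memory libraries 2 and 4, 0.829 and 0.630 in wild-type memory libraries 1 and 2, and 0 in the other 14 libraries. No difference was detectable at this depth.

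The adaptor genes differed from each other. Fcer1g, the Fc receptor gamma chain, which NK1.1 and several other receptors use to signal, was at 10.7, 7.41, 10.3, 11.9 and 26.5 in Dock2-deficient memory libraries and at 18.2, 39.7, 18.05 and 41.1 in wild-type memory libraries. In naive cells it was above 0 in Dock2-deficient libraries 1 (0.909) and 2 (6.11) and in wild-type library 2 (1.81). Memory and naive libraries did not overlap in either genotype, and Fcer1g rose by 2.97 ± 0.62 in Dock2-deficient (limma, adjusted p = 0.0067) and by 4.44 ± 0.69 in wild-type memory cells (adjusted p = 3.49e-04). The related adaptor gene Tyrobp, which encodes DAP12, was below the filter, at 1.72 to 5.31 in Dock2-deficient memory, 1.29 to 8.74 in wild-type memory, 0 to 3.40 in Dock2-deficient naive and 0 in wild-type naive libraries.

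Hcst (DAP10) was present in all groups. Its values were 154, 196, 229, 152 and 395 in Dock2-deficient memory libraries and 144, 144, 169 and 174 in wild-type memory libraries. They were 100.02, 90.4, 87.6, 168 and 114 in Dock2-deficient naive libraries and 90.3, 74.1, 122 and 142 in wild-type naive libraries. Naive library 4 put the Dock2-deficient groups into overlap, while each wild-type memory library lay above each wild-type naive one. The log2 fold change was 0.95 ± 0.25 in Dock2-deficient mice (limma, adjusted p = 0.0473) and 0.59 ± 0.28 in wild-type mice (adjusted p = 0.413). The Dock2-deficient call is a narrow one: it was kept in 7 of 22 alternative fits, and it was lost on leaving out any 1 of Dock2-deficient memory libraries 2, 3 and 5 or naive libraries 1, 2, 3 and 5 (adjusted p up to 0.134). Without Dock2-deficient memory library 5 and wild-type memory library 4 the fold change was 0.72 ± 0.23 (limma, adjusted p = 0.119).

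In bulk samples, more cells expressing a receptor and more RNA per cell cannot be told apart.

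**Figure D2:**
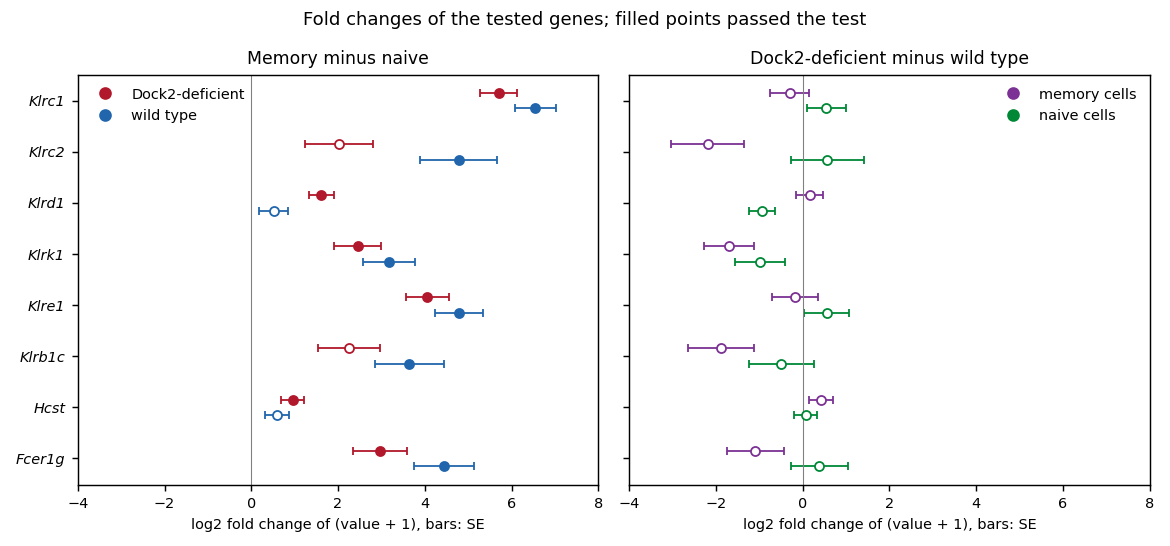
Log2 fold change of value + 1 (horizontal axis) with its SE for the 8 tested genes, for memory over naive (left, Dock2-deficient above wild type in each row) and Dock2-deficient over wild type (right, memory above naive). Filled points passed at an adjusted p under 0.05: 6 of 8 genes in each memory comparison and none in the genotype comparisons. Of all genes tested, 1.77% rose in Dock2-deficient and 1.88% in wild-type memory cells, and 0.053% and 0.138% passed between genotypes in memory and naive cells. Klrc1, Klrc2, Klre1, Klrb1c and Fcer1g could enter the test only by being high in memory libraries, so their number of rises carries no weight.

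Markers of other cells changed unevenly between memory and naive cells. The summed level of 7 markers of NK and other innate lymphocytes (Ncr1, Tyrobp, Klrb1f, Fcgr3, Itga2, Gzma, Kit) was 13.75 to 43.41 in Dock2-deficient memory, 28.36 to 38.96 in wild-type memory, 1.99 to 16.04 in Dock2-deficient naive and 1.13 to 9.78 in wild-type naive libraries. All 7 were above 0 in some memory library of each genotype, and Gzma was the only marker tested. Its log2 fold change was 2.45 ± 0.65 in Dock2-deficient (limma, adjusted p = 0.0448, kept in 7 of 21 alternative fits) and 2.32 ± 0.73 in wild-type mice (adjusted p = 0.114). The defining NK receptor gene Ncr1 was above 0 in 1 of 5 Dock2-deficient memory libraries (3.40) and in 3 of 4 wild-type memory libraries (up to 5.80), and 0 in all naive libraries. Beside Fcer1g, which is also a gene of mast cells, basophils and myeloid cells, the 4 markers Cpa3, Ms4a2, Fcer1a and Mcpt8 were 0 in all 9 memory libraries. The 7 myeloid markers summed to 46.99 to 104.4 in Dock2-deficient memory and 62.01 to 85.08 in wild-type memory libraries, with Cst3 the most abundant of them. Their sums overlapped those in naive libraries, at 51.21 to 93.08 (Dock2-deficient) and 50.63 to 73.4 (wild type). Of the 5 γδ and NKT cell markers (Trdc, Cd163l1, Sox13, Blk, Zbtb16), summed to 71.51 to 133.1 in Dock2-deficient memory, 52.27 to 112.8 in wild-type memory, 25.61 to 58.55 in Dock2-deficient naive and 3.63 to 5.65 in wild-type naive libraries, Cd163l1 and Trdc were tested. Cd163l1 rose by 3.16 ± 0.33 in Dock2-deficient (limma, adjusted p = 2.25e-06) and by 5.88 ± 0.37 in wild-type memory cells (adjusted p = 1.73e-09). Trdc fell in Dock2-deficient memory cells (-1.52 ± 0.35, limma, adjusted p = 0.0146) and rose in wild-type ones (1.63 ± 0.39, adjusted p = 0.0228, kept in 12 of 19 alternative fits). The part of NK, γδ and NKT cells in these results was not tested.

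Between genotypes no difference passed the test, and the values were uneven among the genes. In memory cells 0 of 8 tested genes passed with limma (3 at an unadjusted p under 0.05, Klrk1, Klrc2 and Klrb1c, all lower in Dock2-deficient cells), beside 0.053% of all genes (16.4% unadjusted). In naive cells 0 of 8 passed (1 unadjusted, Klrd1), beside 0.138% (6.09% unadjusted). For the interaction 0 of 8 passed (2 unadjusted, Klrc2 and Klrd1), beside 0.0318% (5.21% unadjusted). Klrc2 and Klrb1c passed the filter only through the wild-type memory libraries. Their unadjusted p-values in memory cells and for the interaction therefore carry no weight.

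The level of Klrk1 averaged 48.5 ± 34.4 in Dock2-deficient memory (SD, n = 5) and 140.2 ± 33.6 in wild-type memory cells (n = 4), a log2 difference of -1.70 ± 0.57 (limma, unadjusted p = 0.0074, adjusted p = 0.238). The groups overlapped in 1 place, Dock2-deficient library 4 (108) lying above wild-type library 1 (102). Klrc2 averaged 12.6 ± 9.74 in Dock2-deficient and 41.9 ± 13.3 in wild-type memory cells, with a log2 difference of -2.20 ± 0.84 (limma, unadjusted p = 0.016, adjusted p = 0.259) and an overlap of Dock2-deficient library 4 (26.2) with wild-type library 4 (24.5). Klrb1c averaged 6.70 ± 4.96 in Dock2-deficient and 20.3 ± 5.27 in wild-type memory cells, with a log2 difference of -1.89 ± 0.76 (limma, unadjusted p = 0.0213, adjusted p = 0.267). For Klrb1c every Dock2-deficient memory library lay below every wild-type one. Klrc2 and Klrb1c passed the filter only through the wild-type memory libraries, so neither this lack of overlap nor their unadjusted p-values carry weight. Itga2, an integrin gene on the NK marker list, was at 0 to 4.26 in Dock2-deficient and 5.24 to 16.6 in wild-type memory libraries. Among the other markers, Gzma and Fcgr3 had higher means in Dock2-deficient memory cells (19.8 against 12.1 and 1.49 against 0.853). Ncr1, Tyrobp, Klrb1f and Kit had lower ones. The sums of the list overlapped, at 13.75 to 43.41 in Dock2-deficient and 28.36 to 38.96 in wild-type memory libraries. The part of these markers in the differences was not tested.

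The remaining genes showed smaller differences between memory groups. The log2 difference of Dock2-deficient minus wild-type memory cells was -0.30 ± 0.45 for Klrc1 (limma, adjusted p = 0.761), -0.19 ± 0.53 for Klre1 (adjusted p = 0.877) and -1.10 ± 0.66 for Fcer1g (adjusted p = 0.391). It was 0.16 ± 0.31 for Klrd1 (limma, adjusted p = 0.807), which turned to -0.15 without Dock2-deficient library 5 and wild-type library 4, and 0.42 ± 0.27 for Hcst (adjusted p = 0.425). The summed Klrc genes gave -0.65 ± 0.56 (limma, adjusted p = 0.556).

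Over all tested genes, the difference between memory groups varied with transcript length. Genes with under 1 kb of exon had a median log2 difference of 0.45 between Dock2-deficient and wild-type memory cells and genes with over 6 kb one of -0.25, with the classes between in order. Klrk1 (7183 bases of exon) and Klrc2 (5812) are the longest of the 9 genes and Hcst (722) and Fcer1g (874) the shortest. The median of the long class minus that of the short class, as log2 deviations from the mean over libraries, was 0.07, -0.49, -0.80, 0.32 and -1.32 in Dock2-deficient memory libraries 1 to 5 and 0.16, 0.51, -0.06 and 0.18 in wild-type memory libraries. With each library's trend with exon length removed, an alternative added after the data were seen, the difference was -1.52 ± 0.52 for Klrk1 (limma, adjusted p = 0.241), -2.087 ± 0.84 for Klrc2 (adjusted p = 0.284) and -2.02 ± 0.75 for Klrb1c (adjusted p = 0.268). In the same fit it was 0.030 ± 0.20 for Hcst (limma, adjusted p = 0.959) and -1.46 ± 0.68 for Fcer1g (adjusted p = 0.328). Under it 5 genes passed in Dock2-deficient memory against naive cells, with Hcst lost (limma, adjusted p = 0.0606), and the 6 wild-type calls remained.

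**Figure D3:**
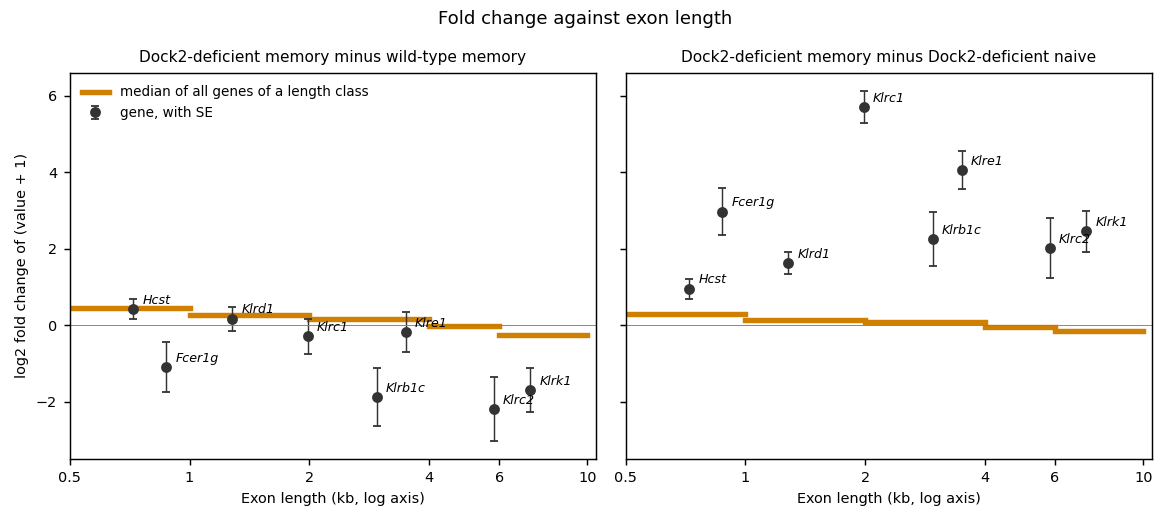
Log2 fold change of value + 1 (vertical axis) against exon length in kb (log axis) for the 8 tested genes (points with SE) and the median of all tested genes in 5 length classes (bars), for Dock2-deficient minus wild-type memory cells and for Dock2-deficient memory minus naive cells. In the first comparison the medians run from 0.45 in the shortest to -0.25 in the longest class, and Klrk1 at -1.70, Klrc2 at -2.20 and Klrb1c at -1.89 lie below the medians of their classes.

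Ratios within a memory library, chosen after the values were seen and given without a test, put receptor genes beside each other free of the scaling between libraries. They are not free of transcript length or, for Klrc1 and Klrc2, of the uncertain sharing of reads. Klrk1 as a percentage of Klrd1 was 14.4, 24.1, 13, 47.4 and 8.35 in Dock2-deficient libraries and 47.3, 89, 50.8 and 89.8 in wild-type libraries, so that only Dock2-deficient library 4 reached the lowest wild-type library. Klrc2 as a percentage of Klrc1 was 0, 30.8, 19, 21.2 and 8.56 in Dock2-deficient libraries and 75.3, 44.1, 41.7 and 25.3 in wild-type libraries, with library 2 of the first group above library 4 of the second. Klrc1 as a percentage of Klrd1 was 34.1 ± 12.7 in Dock2-deficient (SD, n = 5) and 45.6 ± 10.9 in wild-type libraries (n = 4), with wide overlap.

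**Figure D4:**
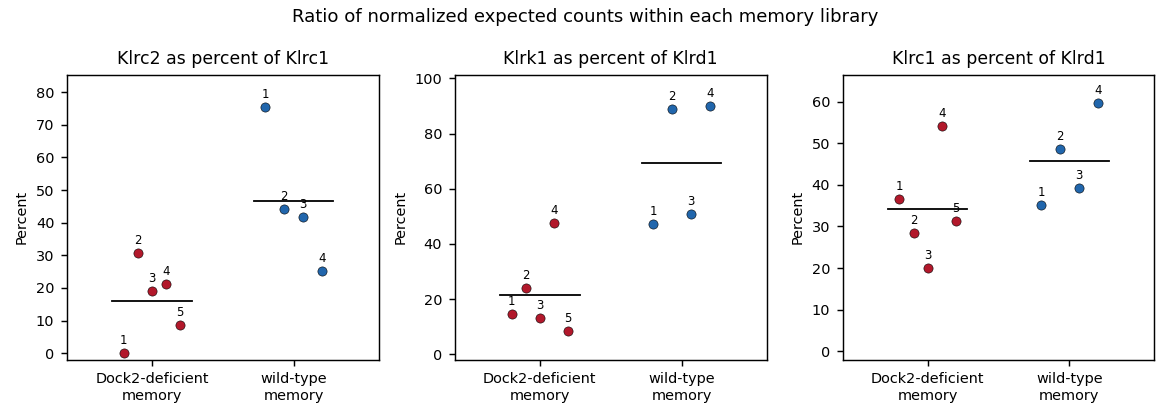
Klrc2 as a percentage of Klrc1, Klrk1 of Klrd1 and Klrc1 of Klrd1 in each of the 5 Dock2-deficient and 4 wild-type memory libraries (vertical axis, percent); numbers are replicate numbers and lines are means. In Dock2-deficient libraries the 3 means are 15.9%, 21.5% and 34.1%, and in wild-type libraries 46.6%, 69.2% and 45.6%.

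In naive cells most of these genes were too low for a genotype comparison, and Klrd1, Klrk1 and Hcst carried it. Klrd1 averaged 82.4 ± 42.3 in Dock2-deficient naive (SD, n = 5) and 149 ± 43.5 in wild-type naive cells (n = 4), a log2 difference of -0.94 ± 0.31 (limma, unadjusted p = 0.00642, adjusted p = 0.487). Of the Dock2-deficient naive libraries, 4 lay below every wild-type naive library and library 4 (153) lay within their range. Klrk1 differed by -0.98 ± 0.57 (limma, adjusted p = 0.907) and Hcst by 0.06 ± 0.27 (adjusted p = 1). Dock2-deficient naive library 2 held 3.98 of the 4.98 Klrc1 reads, 9.02 of the 14.02 Klrc2 reads and 3.99 of the 4.99 Klre1 reads of its group. It also held both Klrb1c reads and 9 of the 10 Fcer1g reads. Of 5 γδ and NKT cell markers, Trdc and Cd163l1 rose in Dock2-deficient naive cells relative to wild-type ones (Trdc 32.8 ± 11.5 and 3.98 ± 1.34, limma, adjusted p = 6.46e-04), and their part in the naive values of these receptor genes was not tested.

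Per kilobase of exon, the mean levels in memory cells were led by the adaptor Hcst and by CD94. In Dock2-deficient memory cells the level was 311.7 ± 138 per kb for Hcst, 191 ± 72.9 for Klrd1, 41.4 ± 19.6 for Klrc1, 15.3 ± 8.63 for Fcer1g, 6.78 ± 1.40 for Klre1, 6.76 ± 4.79 for Klrk1, 2.26 ± 1.68 for Klrb1c and 2.17 ± 1.68 for Klrc2 (SD, n = 5). In wild-type memory cells it was 218 ± 22.2 for Hcst, 164 ± 30.1 for Klrd1, 47.0 ± 5.98 for Klrc1, 33.5 ± 14.7 for Fcer1g, 19.5 ± 4.68 for Klrk1, 8.16 ± 2.94 for Klre1, 7.20 ± 2.29 for Klrc2 and 6.87 ± 1.78 for Klrb1c (n = 4). Each gene's libraries overlapped those of the next gene in this order, apart from Klrd1 and Klrc1 in both genotypes and Klrk1 and Klre1 in wild-type memory cells. In naive cells Klrd1 was at 64.3 ± 33.0 (Dock2-deficient) and 116 ± 33.9 (wild type) where Klrc1 was at 0.353 ± 0.591 and 0. The length used is the union of all annotated exons of a gene, so levels per kb are comparable only roughly between genes.

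**Figure D5:**
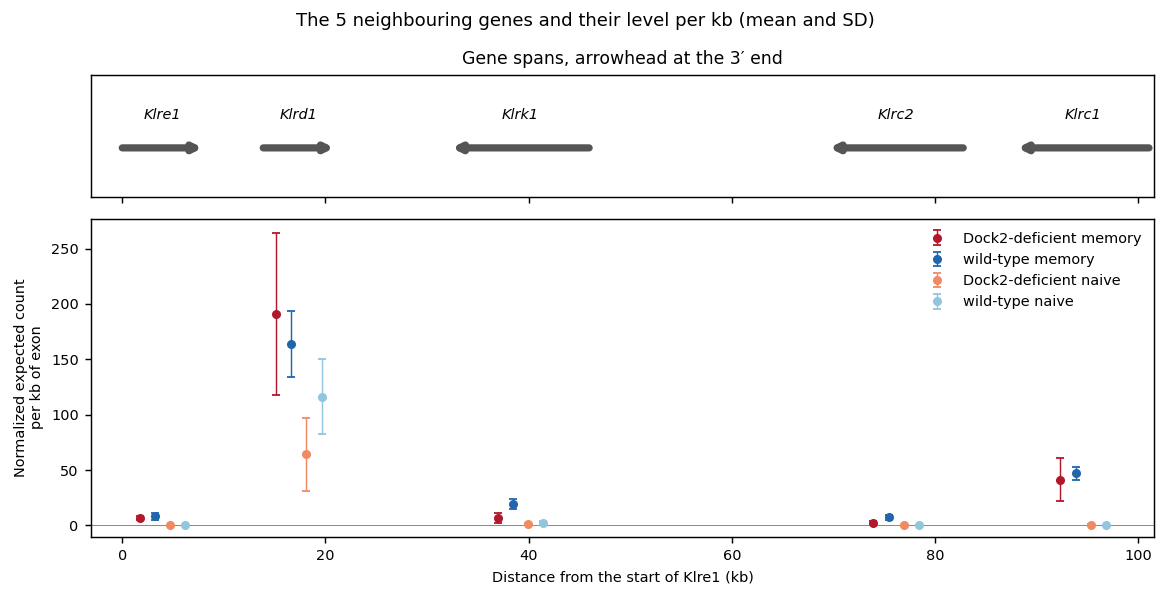
Span and direction of the 5 neighbouring genes Klre1, Klrd1, Klrk1, Klrc2 and Klrc1 along chromosome 6, as distance in kb from the start of Klre1 (top), and their normalized expected count per kb of exon as mean and SD in each of the 4 groups (bottom, groups drawn side by side under each gene). Klrd1, between Klre1 and Klrk1, is at 64.3 and 116 per kb in Dock2-deficient and wild-type naive cells. In the same order Klre1 is at 0.201 and 0 and Klrk1 at 1.19 and 2.43.

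Within groups the genes varied in different ways. After each group's mean was subtracted, Klrd1 and Hcst had a Pearson correlation of 0.77 over the 18 libraries and Klrd1 and Klrk1 one of -0.64, and the genes most like Klrd1 were Cct5 (0.921), Psma2 (0.897) and Serf2 (0.895). Those most like Hcst were Atp5e (0.926), Ndufb9 (0.921) and Psmb8 (0.915), which encode parts of the ATP synthase, of respiratory complex I and of the immunoproteasome. Klrc2 and Klrb1c moved together within groups (0.812). These values are descriptions over 18 libraries that share depth, composition and the length trend above.

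Over all 18 libraries, without subtracting group means, the genes most like Klrc1 among 3595 genes with a mean of at least 50 were Samd3 (Pearson r of 0.983), Ctla2a (0.977) and Il2rb (0.969), and Klre1 had the first 2 of these in common. Il2rb encodes the receptor chain shared by interleukin-2 and interleukin-15. Klrk1 was most like Il18r1 (0.946), the interleukin-18 receptor, Sh2d2a (0.939) and Zyx (0.906), and Klrd1 most like Sh2d1a (0.857), which encodes the adaptor SAP, Hsd11b1 (0.833) and Lax1 (0.832). Hcst was most like the cytotoxic granule gene Nkg7 (0.926). Such correlations include the difference between memory and naive cells.

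Of the 18 listed regulators and cytokine receptors of these cells, 16 were tested, and 3 rose in Dock2-deficient memory cells (Tbx21, Eomes and Il2rb) and 4 in wild-type memory cells (the same 3 and Id3), with none lower. Of all genes tested, 1.77% and 1.88% rose. The list was chosen with earlier results of these data known, so its number of rises carries no weight. The Id3 call was kept in 9 of 20 alternative fits. The median log2 difference over the list was 0.02 and 0.26, beside -0.01 and -0.02 over all genes. Tbx21, which encodes T-bet, averaged 369 ± 103 in Dock2-deficient memory, 509 ± 122 in wild-type memory, 49.2 ± 19.7 in Dock2-deficient naive and 7.44 ± 7.24 in wild-type naive cells. It was the 1 gene of the list that rose in naive cells of Dock2-deficient relative to wild-type mice (2.82 ± 0.38, limma, adjusted p = 6.46e-04). Its interaction was -3.29 ± 0.54 (limma, adjusted p = 0.0287), a call kept in 13 of 29 alternative fits (adjusted p up to 0.146). It was lost without the libraries that stand apart (limma, adjusted p = 0.114). In the same naive comparison the log2 difference was 0.55 ± 0.45 for Klrc1 (limma, adjusted p = 0.963) and 0.55 ± 0.53 for Klre1 (adjusted p = 0.977). Eomes rose by 1.86 ± 0.43 in Dock2-deficient (limma, adjusted p = 0.0176) and by 2.89 ± 0.49 in wild-type memory cells (adjusted p = 8.54e-04), and Il2rb by 2.77 ± 0.24 (adjusted p = 1.46e-07) and 3.63 ± 0.27 (adjusted p = 1.55e-08) in the same order. Runx3, the RUNX factor of CD8 T cells, is named after its values were seen. It averaged 134 ± 18.4 in Dock2-deficient memory, 187 ± 7.36 in wild-type memory, 137 ± 34.8 in Dock2-deficient naive and 134 ± 16.1 in wild-type naive cells, and passed in no comparison (Dock2-deficient minus wild-type memory cells, -0.49 ± 0.19, limma, adjusted p = 0.259).

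Of 17 listed ligands, 13 were in the table and 5 were tested. With limma 0 passed in any of the 5 comparisons (at most 2 in each at an unadjusted p under 0.05). Between memory groups 2 of 5 were under 0.05 unadjusted, beside 16.4% of all genes. Of all genes, 0.053% passed between memory groups, 0.138% between naive groups and 0.0318% for the interaction. In memory against naive cells 1.77% rose and 1.05% fell in Dock2-deficient mice, and 1.88% and 0.646% in wild-type mice. H2-T23, which encodes the Qa-1b molecule bound by NKG2A and NKG2C, was expressed by the T cells themselves, with a median of 603 (274 to 1723) in Dock2-deficient memory, 311.03 (268 to 530) in wild-type memory, 551 (411 to 786) in Dock2-deficient naive and 653 (334 to 957) in wild-type naive libraries. Its log2 difference between Dock2-deficient and wild-type memory cells was 0.98 ± 0.43 (unadjusted p = 0.0325, limma, adjusted p = 0.285). Of 18 listed signalling genes, 15 were tested and 0 passed in any comparison (at most 4 unadjusted). Between memory groups 3 of 15 were under 0.05 unadjusted, beside the same 16.4%. The list median there was -0.28, beside 0.01 over all genes. That difference ran from 0.45 for genes under 1 kb to -0.25 for genes over 6 kb, and the part of length in the list median was not tested. The other 8 Klr genes outside the Ly49 family that were in the table (of 10 listed) all fell below the filter.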

How the data were processed

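RNA from naive and memory-phenotype CD8 T cells was extracted with Qiagen columns and made into libraries with a Smart-seq2 protocol, per the labels' protocols. The submitters' processing notes name bcl2fastq, FastQC, RSEM and the build mm10. The deposited values are a signal scaled by the authors between libraries: RSEM expected counts divided by 1 factor per library, as the values themselves show. Taking the most frequent value above 0 as 1 read, 59.5% to 69.3% of values in a library were whole reads (tolerance 0.005), so no count model was run. limma 3.58.1 (R 4.3.3) was fitted to log2(value + 1) of the 9437 genes with 4 or more libraries at 10 or above, with 1 mean for each of 4 groups, all 18 libraries, a variance trend and Benjamini-Hochberg adjustment. The fit had 14 residual degrees of freedom, and it was tested on simulated data. Changes were planted there only in genes with a mean of at least 50, so recovery in lower genes was not tested. Tables were made with Python 3.11.15, pandas 2.3.3 and scipy 1.17.1 and figures with matplotlib 3.10.9. Replicates of a group had log-scale correlations of 0.786 to 0.923 and none was a duplicate. Genes were matched to GENCODE M21 (46488 of 46983 rows). Genes named beyond the 9 were those of fixed lists called in a comparison or standing as a ligand, adaptor or marker, and the 3 genes of a mean of at least 50 most correlated with each member. The members, lists and markers were chosen with earlier results of these data known. Same-numbered libraries were not paired in the analysis. Library 1 was the only library with high Xist in both Dock2-deficient groups, so whether same-numbered libraries came from the same animal was not settled. Alternatives covered pseudocounts, filters, scalings, library weights, a replicate block and leaving out libraries.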

Additional observations from a re-analysis of the deposited data

Results flagged for a closer look

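Over the 9 genes, 32 groups of 4 or 5 libraries held more than 1 distinct value. In 7 of these 32, the gap of a library to its nearest neighbour exceeded Dixon's 95% critical value for the group's range. Chance alone gives about 1 in 20 groups, and groups with most libraries at 0 are flagged by a single read or a few. Among memory libraries, Klrk1 was 108 in Dock2-deficient library 4, with the next at 46.9. Fcer1g was 26.5 in Dock2-deficient memory library 5, with the next at 11.9. Klrc1 was 75.6 in wild-type memory library 1, with the next at 96.9. Klre1 was 13.1 in wild-type memory library 4, with the next at 33.4. Among naive libraries, Klrb1c was 1.36 in Dock2-deficient library 2 and 0 in the others of its group. Fcer1g was 6.11 in Dock2-deficient naive library 2, with the next at 0.909, and 1.81 in wild-type naive library 2 and 0 in the others of that group.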

How the results depend on the processing

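Of 12 called member fold changes, 231 of 248 alternative fits kept the call, 17 lost it and 0 turned direction. The 28 differences not called passed in 4 of 641 fits and turned direction in 9. With a filter on a mean of at least 20, under which 4 of the 9 genes are tested, 2 passed in wild-type memory against naive cells instead of 6. The Klrd1 difference of Dock2-deficient minus wild-type memory cells was -0.034 with library weights, -0.15 without the libraries that stand apart and -0.12 with the exon length trend removed, and -0.032 to 0.30 on leaving out 1 library. The Dock2-deficient minus wild-type naive difference was -0.056 for Hcst with a replicate block. On leaving out 1 library it was -0.095 to 0.21 for Hcst and -0.14 to 0.75 for Fcer1g, the causes not tested. Leaving out 1 library gave 5 to 8 members in Dock2-deficient and 5 to 6 in wild-type memory against naive cells. Same-numbered libraries did not deviate together (correlations of -0.253 to 0.303, best with the own number in 5 of 17), and a fit with the replicate number as a block called 4 members in Dock2-deficient (without Klrk1, at an adjusted p of 0.05 with limma, and Hcst, at 0.0775) and 6 in wild-type memory against naive cells and 0 elsewhere. Over all genes, library weights gave 20 higher and 20 lower instead of 3 and 2 between memory groups, 269 and 181 instead of 167 and 99 in Dock2-deficient memory against naive cells, and 272 and 105 instead of 177 and 61 in wild-type ones. With the exon length trend removed, an alternative added after the data were seen, the memory groups gave 5 higher and 4 lower and the interaction 1 higher and 7 lower, instead of 1 and 2. Depth limits Klrg1 and the naive levels of Klrc1, Klrc2, Klre1, Klrb1c and Fcer1g, which rest on a few reads a library.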
